A study of Mus musculus with 6 samples.

Results

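The genes described are the keratins of the hair shaft and of its inner root sheath, the keratin-associated proteins (Krtap genes), trichohyalin (Tchh) and the regulators Msx2 and Foxn1, in the back skin of newborn mice. They were chosen by gene symbol, with earlier results of these data known. The rule took every symbol that starts with Krtap and a digit, Krt25 to Krt28, Krt31 to Krt36 with Krt33a and Krt33b, Krt71 to Krt75, Krt81 to Krt86, Tchh, Msx2 and Foxn1. Among 18193 genes measured by probe sets that name a single gene, 61 met this rule, of which 38 were Krtap genes and 23 came from the 25 symbols listed by name. Krt74 and Krt85 were not analysed here. Where a gene had several probe sets, the brightest on average was taken.

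Expression was measured on Affymetrix arrays in whole back skin of 6 female mice from a single litter at postnatal day 2.5, with 1 array per mouse. The 3 caNrf2 mice were K5cre-caNrf2 (tg/tg), in which Cre under the keratin 5 promoter goes with caNrf2, an Nrf2 that is active without a signal. Nrf2 switches on antioxidant and detoxification genes, and the keratin 5 promoter works in basal keratinocytes and in the outer root sheath. The 3 controls were K5cre-wt (tg/wt). FVB/N/C57BL/6 mixed is the strain given for every mouse, and the labels use the word weak for all 6 samples without explaining it. Values are log2 intensities after RMA, an array normalisation, and a difference of 1 is a doubling. With 3 arrays per group, their number limits the precision.

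A hair follicle builds concentric layers from proliferating matrix cells at its base. Type I and type II hair keratins pair into filaments in the cortex and cuticle of the shaft, and Krtap proteins, made late in shaft formation, embed and crosslink these filaments. Krtap families are either rich in cysteine, called sulfur-rich here, or rich in glycine and tyrosine. The inner root sheath, which moulds the growing shaft, has keratins of its own, and Tchh stiffens that sheath and the medulla. Foxn1, the factor lost in nude mice, and Msx2 act in the follicle and are needed for a normal shaft. In whole skin, fewer cells of a type and less RNA per cell cannot be told apart.

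Starting regions are shown first, to let the sequences of the classes be compared. RefSeq promoter sequences of build GRCm38.p6, from 250 bases before to 50 bases after the gene start, were found for 54 of the 61 genes. The letters TATAAA, on either strand, stood in 41 of 54 (75.9%), against 13.6% of all 32851 promoters of that length. TATATAA, which can overlap the first motif, stood in 18 of 54 (33.3%), against 3.24% of all. Either motif was found in 13 of 13 glycine-tyrosine-rich Krtap promoters, 7 of 7 of inner root sheath keratins, 22 of 23 sulfur-rich Krtap and 6 of 7 shaft keratin promoters, and in none of those of Tchh, Msx2, Foxn1 and Krt75. On the strand of the gene and 40 to 20 bases before its start, either motif was found in 31 of 54 (57.4%), against 2.37% of all promoters. CTTTGA, a core bound by Lef1, was in 29.6% of the 54 and 16% of all promoters. TAATTG, bound by Msx factors, was in 27.8% of the 54 and 8% of all, and ACGC, bound by Foxn1, in 31.5% and 55.3%, each on either strand. A match is a description of letters and was not tested as a site.

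To compare a gene of each class, the 250 bases before the start follow for Krt25 of the inner root sheath, the shaft keratin Krt31, the sulfur-rich Krtap4-6, and the glycine-tyrosine-rich Krtap6-3 and Krtap19-1. They read 5′ to 3′ on the strand of the gene, and capitals mark TATAAA or TATATAA.
Krt25: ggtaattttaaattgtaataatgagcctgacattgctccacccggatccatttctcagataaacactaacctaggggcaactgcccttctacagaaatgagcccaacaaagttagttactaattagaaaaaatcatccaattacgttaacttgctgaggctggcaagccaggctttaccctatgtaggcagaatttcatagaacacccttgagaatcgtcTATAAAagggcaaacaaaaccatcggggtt
Krt31: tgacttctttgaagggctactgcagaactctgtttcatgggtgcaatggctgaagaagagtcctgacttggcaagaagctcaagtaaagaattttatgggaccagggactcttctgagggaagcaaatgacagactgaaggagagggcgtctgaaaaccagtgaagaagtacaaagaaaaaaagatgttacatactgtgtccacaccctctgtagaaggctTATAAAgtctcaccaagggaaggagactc
Krtap4-6: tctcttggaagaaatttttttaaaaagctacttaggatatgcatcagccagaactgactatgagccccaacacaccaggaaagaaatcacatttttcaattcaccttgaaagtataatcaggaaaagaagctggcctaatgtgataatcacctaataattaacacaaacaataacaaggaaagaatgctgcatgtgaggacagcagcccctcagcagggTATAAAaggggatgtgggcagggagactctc
Krtap6-3: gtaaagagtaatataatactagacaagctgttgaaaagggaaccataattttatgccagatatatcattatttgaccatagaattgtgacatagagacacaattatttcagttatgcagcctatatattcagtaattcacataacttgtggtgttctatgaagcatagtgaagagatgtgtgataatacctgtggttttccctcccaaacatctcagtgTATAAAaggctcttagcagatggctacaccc
Krtap19-1: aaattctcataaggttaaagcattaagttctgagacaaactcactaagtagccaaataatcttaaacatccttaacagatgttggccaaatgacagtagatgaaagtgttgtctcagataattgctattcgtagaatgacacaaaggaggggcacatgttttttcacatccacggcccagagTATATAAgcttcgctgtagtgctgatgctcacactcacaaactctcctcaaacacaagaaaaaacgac
Krt25 is shown at chr11:99322952-99323201 (minus strand) and Krt31 at chr11:100050552-100050801 (minus strand). Krtap4-6 is shown at chr11:99665961-99666210 (minus strand), Krtap6-3 at chr16:89083774-89084023 (plus strand) and Krtap19-1 at chr16:88869411-88869660 (minus strand). The marked letters nearest the start begin 30 bases before it in Krt25, 29 in Krt31, 31 in Krtap4-6, 31 in Krtap6-3 and 68 in Krtap19-1.

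The target pathway and the tissue were checked first. Nfe2l2, which encodes Nrf2, measured 9.91, 9.75 and 9.76 in caNrf2 skin, against 9.36, 9.40 and 9.42 in control skin, without overlap but short of the threshold (limma, adjusted p = 0.0539). Nqo1, a target of Nrf2, was higher in caNrf2 skin by 3.60 ± 0.13 (log2, SE; limma, adjusted p = 2.7e-07). Epidermal (Krt5, Krt14, Krt1, Krt10, Lor, Flg) and dermal markers (Col1a1, Col3a1, Dcn, Lum) lay between 12.41 and 14.38 on every array. Array medians were 80.7 to 81.9 intensity units. The highest value of 5 Y-linked genes, silent in females, was 5.10; the means of 2 hair genes, Krtap13 and Krtap31-1, lay below it, while 58 of 61 reached the level of the median probe set (6.34).

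No hair gene passed the test for a difference between caNrf2 and control skin. In limma, fitted over all genes, 0 of 61 passed an adjusted p of 0.05, where 0.374% of all genes passed (0.346% higher and 0.0275% lower in caNrf2 skin). With so small a share of all genes passing, 0 of 61 tells little about hair genes. At an unadjusted p under 0.05 the count was 0 of 61, against 8.09% of all genes. The smallest adjusted p of a hair gene was 0.768. The groups overlapped for every hair gene, whereas 13.1% of all genes had groups that did not. For 58 of 61 the overlap follows from caNrf2 array 1 lying above and array 3 below every control. The median 95% interval reached 0.437 to either side for hair genes, and 0.979 for glycine-tyrosine-rich Krtap genes, against 0.185 over all genes. Differences smaller than that could be missed. The median log2 difference, caNrf2 minus control, was -0.11 over the 61 genes and -0.0070 over all genes, and 55 of 61 were below 0, against 52.8% of all genes. With single arrays left out, that direction turned only without caNrf2 array 3. The median was -0.30 without caNrf2 array 1, and 0.18 without caNrf2 array 3, where 55 of 61 were above 0.

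The hair genes differed most among the caNrf2 mice themselves. Relative to the control mean, their median was 0.36 on caNrf2 array 1, -0.0098 on array 2 and -0.62 on array 3, and between -0.081 and 0.080 on the control arrays. For 58 of 61 genes array 1 lay above and array 3 below every control array, a pattern of 6.33% of all genes. The exceptions were Krt84, Krtap5-3 and Krtap13. Among the caNrf2 arrays, array 1 was the highest and array 3 the lowest for 56 of 61, against 14.7% of all genes. Array 2 lay within the control range for 40 of 61. The SD over the caNrf2 arrays exceeded that over the control arrays for 61 of 61 genes, against 68.2% of all genes. Its median was 0.505 in caNrf2 and 0.089 in control arrays for hair genes, and 0.108 and 0.0716 for all genes. Differences among the caNrf2 arrays were known when these genes were chosen, so the counts are descriptions.

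**Figure D1:**
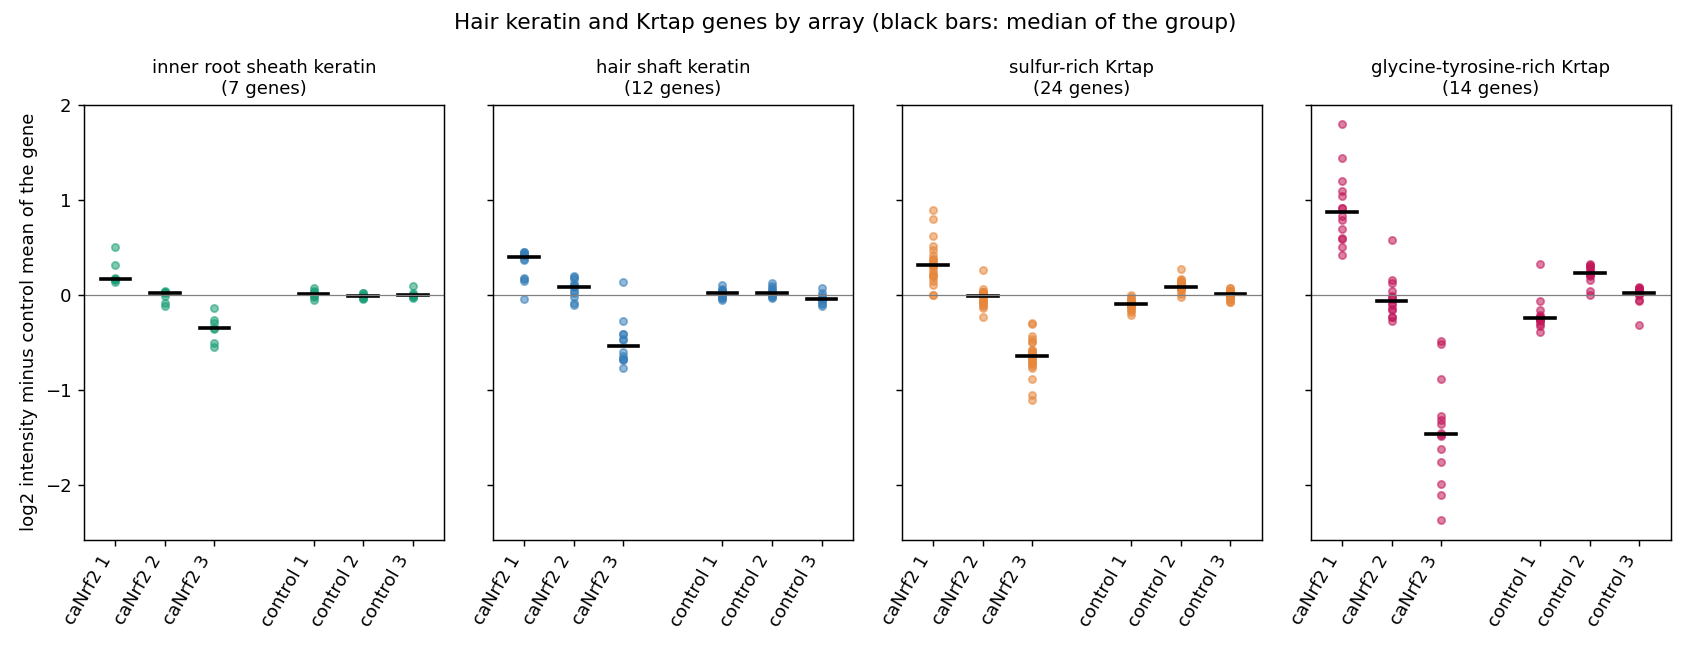
Each point is a hair gene on an array, as log2 intensity minus the mean of that gene over the control arrays (y axis), with the 3 caNrf2 arrays left of the 3 control arrays, by class. In the glycine-tyrosine-rich class the medians lie at 0.87, -0.064 and -1.47 on caNrf2 arrays 1, 2 and 3, and between -0.25 and 0.23 on the control arrays.

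**Figure D2:**
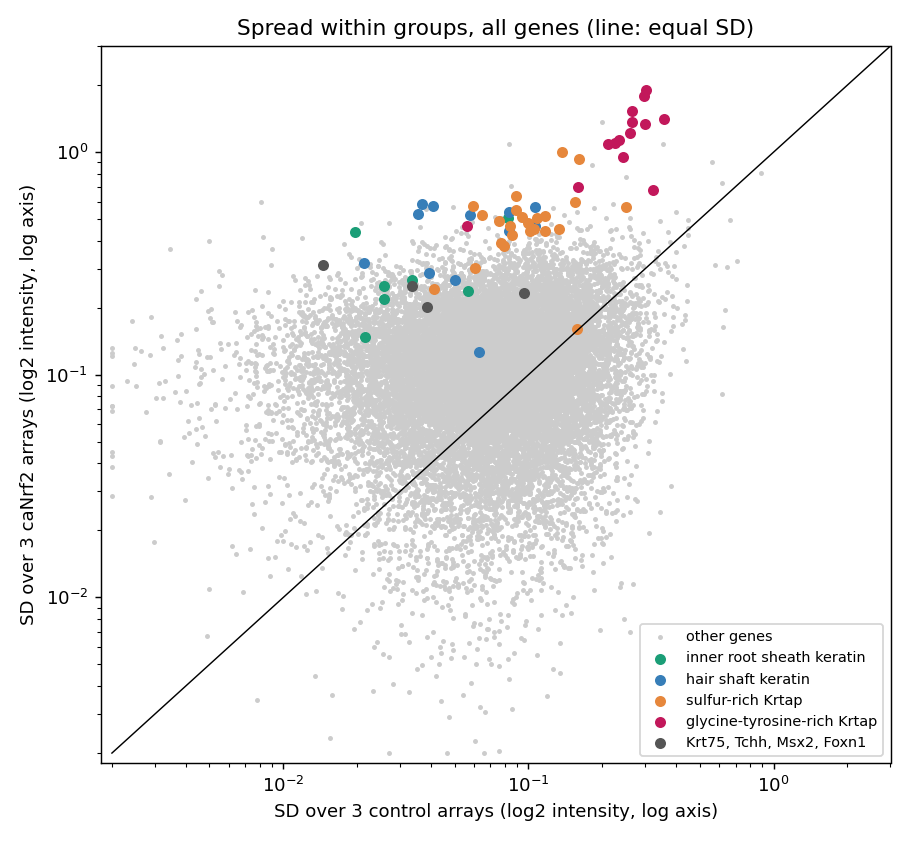
The SD of log2 intensity over the 3 caNrf2 arrays (y axis) is set against the SD over the 3 control arrays (x axis), both on log axes, for every gene, with hair genes coloured by class. All 61 hair genes lie above the line of equal SD.

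Of the 37 genes at least 1 log2 unit higher on caNrf2 array 1 than on array 3 (0.203% of all genes), 28 were hair genes, which is 75.7% of the 37 and 45.9% of the 61. The 9 others lay outside the symbol rule and were named after their values were seen. They were Gm10228, Gm10229, Gm11563, Slc15a2, Vnn1, Sptssb, Calhm4, Ces1d and St8sia6. A probe set not counted here names Gm10228 together with Krtap6-1. The rule by symbol can thus miss hair genes, and 75.7% is the share of the genes it lists. Of the 9 genes at least as far apart the other way, 0 were hair genes.

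Both regulators and Tchh overlapped between the groups. Foxn1 measured 8.13, 8.14 and 7.70 in caNrf2 skin, against 7.97, 8.01 and 8.04 in control skin. Arrays 1 and 2 lay above the controls and array 3 below them, and the difference was -0.018 (95% interval -0.27 to 0.23; limma, adjusted p = 0.987). A second Foxn1 probe set gave -0.043. Msx2 measured 9.91, 9.79 and 9.52 in caNrf2 skin, against 9.88, 9.88 and 9.81 in control skin. Array 3 was again the low one, and Msx2 differed by -0.12 (-0.33 to 0.10). Tchh measured 13.04, 12.60 and 12.69 in caNrf2 skin, against 12.79, 12.95 and 12.78 in control skin. Unlike most hair genes it was lowest on array 2, and its difference was -0.058 (-0.31 to 0.19). Krt75, the keratin of the companion layer between inner and outer root sheath, measured 11.81, 11.73 and 11.23 in caNrf2 skin, against 11.70, 11.72 and 11.72 in control skin. Its control values spanned 0.028, while array 3 stood at -0.48 from their mean.

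Inner root sheath keratins were bright and moved least of the 4 classes. The 7 measured genes had mean levels from 10.78 to 13.53, a median difference of -0.035, and 0 passed the test. Krt25, a type I keratin of the sheath, measured 13.67, 13.54 and 13.38 in caNrf2 skin, against 13.50, 13.54 and 13.52 in control skin. Krt71, a type II keratin altered in several curly-coated animals, measured 13.59, 13.44 and 13.10 in caNrf2 skin, against 13.48, 13.43 and 13.44 in control skin. In both, array 1 lay above and array 3 below the controls, and the differences were 0.012 (95% interval -0.18 to 0.20) and -0.074 (-0.32 to 0.17). Krt27, another type I keratin, measured 13.16, 13.01 and 12.73 in caNrf2 skin, against 12.998, 13.01 and 12.96 in control skin. Krt28, also type I, measured 12.37, 12.07 and 11.83 in caNrf2 skin, against 12.23, 12.16 and 12.19 in control skin. Krt27 and Krt28 differed by -0.025 and -0.10, less than the span of their caNrf2 values. From array 1 to array 3 the distance was 0.29 for Krt25 and 0.53 for Krt28. It reached 0.85 for Krt72 and 1.01 for Krt26, both keratins of the sheath cuticle in human follicles, and was 0.46 for Krt73, also of that cuticle. Krt72 and Krt26 were also the dimmest of the class, at mean levels of 11.08 and 10.78, and Krt25 was the brightest. The part of signal level in these distances was not tested. The class median was 0.49, a factor of 1.4.

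Hair shaft keratins spread further over the caNrf2 mice. The 12 measured genes had a median difference of -0.046, 0 passed the test, and for 11 of them array 1 lay above and array 3 below every control. The median distance from array 1 to array 3 was 0.87 for 7 type I and 1.03 for 5 type II keratins. Krt33a, a cortex keratin, measured 12.42, 12.07 and 11.28 in caNrf2 skin, against 12.07, 12.06 and 12.01 in control skin. Array 2 was level with the controls, and arrays 1 and 3 were 2.21-fold apart, with a group difference of -0.13 (95% interval -0.62 to 0.37; limma, adjusted p = 0.928). Krt35, which appears early in the forming shaft, measured 12.32, 12.14 and 11.75 in caNrf2 skin, against 12.21, 12.18 and 12.13 in control skin. Krt34, of the cortex, measured 11.63, 11.33 and 10.59 in caNrf2 skin, against 11.19, 11.32 and 11.17 in control skin. Neither differed beyond the caNrf2 spread (-0.10 for Krt35 and -0.043 for Krt34). Krt33b, also of the cortex, had the most positive difference of the class, 0.067, with 10.93, 10.63 and 10.05 in caNrf2 skin, against 10.52, 10.52 and 10.38 in control skin. Krt32, of the cuticle, had the most negative one, -0.13, with 10.08, 9.83 and 9.45 in caNrf2 skin, against 9.92, 9.90 and 9.94 in control skin. Only array 1 of the caNrf2 arrays stood above the controls for Krt32.

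Type II keratins, except Krt84, showed the same order of arrays. Krt86 measured 11.32, 11.02 and 10.22 in caNrf2 skin, against 10.87, 11.02 and 10.82 in control skin. Krt81 measured 10.95, 10.61 and 9.93 in caNrf2 skin, against 10.51, 10.59 and 10.48 in control skin. Krt83 measured 10.67, 10.30 and 9.55 in caNrf2 skin, against 10.26, 10.23 and 10.18 in control skin. These cortex keratins are close relatives whose probes may share transcripts, and they differed by -0.051, -0.030 and -0.049. Krt82, of the cuticle, measured 8.995, 8.75 and 8.10 in caNrf2 skin, against 8.66, 8.58 and 8.45 in control skin. Its difference was 0.055 (-0.36 to 0.46). Krt84, a keratin known best from the tongue, was dim, with 5.70, 5.63 and 5.88 in caNrf2 skin, against 5.68, 5.73 and 5.81 in control skin. Array 3 was the highest of its caNrf2 values, the reverse of its class.

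**Figure D3:**
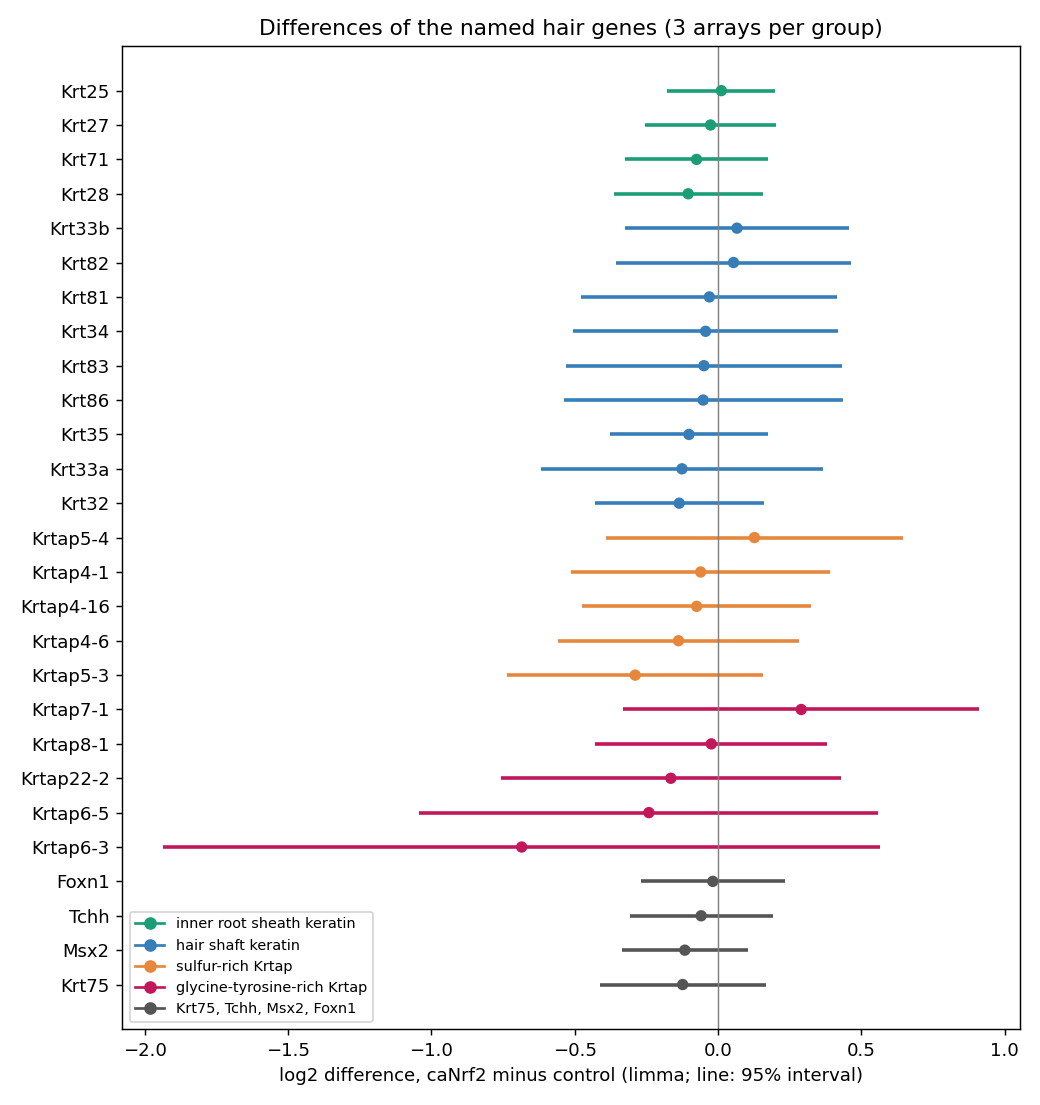
Points are log2 differences, caNrf2 minus control (x axis), of 27 hair genes chosen by role, level and size of difference, and lines are 95% intervals from limma (3 arrays per group). Every interval holds 0, that of Krtap6-3 from -1.94 to 0.57.

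Sulfur-rich Krtap genes spread about as far as the shaft keratins. The 24 measured genes had a median difference of -0.12, 23 of them were below 0, and 0 passed the test. Their median was -0.34 without caNrf2 array 1 and 0.15 without caNrf2 array 3. For 22 of 24, array 1 lay above and array 3 below every control. Krtap4-6 measured 12.13, 11.75 and 11.18 in caNrf2 skin, against 11.73, 11.93 and 11.82 in control skin. Krtap4-1 measured 11.96, 11.56 and 10.93 in caNrf2 skin, against 11.44, 11.67 and 11.53 in control skin. Krtap4-16 measured 11.84, 11.61 and 10.97 in caNrf2 skin, against 11.46, 11.66 and 11.53 in control skin. In these bright members of family 4, which lie on chromosome 11 near the type I keratins, array 2 lay inside the control range. Krtap5-4 had the most positive difference of the class, 0.13 (-0.39 to 0.65), with 8.16, 7.82 and 7.06 in caNrf2 skin, against 7.33, 7.82 and 7.50 in control skin. Krtap5-3 had the most negative, -0.29 (-0.74 to 0.16; limma, adjusted p = 0.768), with 7.11, 7.14 and 6.22 in caNrf2 skin, against 7.06, 7.09 and 7.18 in control skin. For Krtap5-3 array 3 alone was low.

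Krtap14 and Krtap15, singled out after their values were seen, stood apart in the class. Their distances from array 1 to array 3 were 1.997 and 1.85, against 0.31 to 1.27 for the other sulfur-rich genes. They lie on chromosome 16, as do all 14 glycine-tyrosine-rich genes and also Krtap11-1, Krtap13-1, Krtap26-1 and Krtap13, whose distances were 1.13, 1.09, 0.99 and, at the level of silent genes, 0.31. Krtap14 measured 10.80, 9.94 and 8.80 in caNrf2 skin, against 9.83, 10.07 and 9.84 in control skin.

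Glycine-tyrosine-rich Krtap genes varied most of the 4 classes. The 14 measured genes, of families 6, 7, 8, 16, 19, 21 and 22, had a median SD of 1.18 over caNrf2 and 0.262 over control arrays. For 14 of 14, array 1 lay above and array 3 below every control. The median distance from array 1 to array 3 was 2.34, a factor of 5.05. For the sulfur-rich class it was 0.94, a factor of 1.92. Their median difference between groups was -0.19 with 0 passing the test; it was -0.78 without caNrf2 array 1 and 0.47 without caNrf2 array 3. Krtap19-1 had the largest measured distance of the 18193 genes, with 8.998, 6.97 and 5.21 in caNrf2 skin, against 6.90, 7.51 and 7.21 in control skin. Array 3 lay near the highest value of the Y-linked genes, so no exact fold is given. Its group difference was -0.15 with a 95% interval of -1.69 to 1.40. A second, dimmer Krtap19-1 probe set differed by 0.61 from array 1 to array 3.

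Krtap8-1, the brightest Krtap gene, moved least in the class, with 13.18, 12.80 and 12.26 in caNrf2 skin, against 12.71, 12.81 and 12.80 in control skin. Krtap6-5 measured 12.06, 11.46 and 10.20 in caNrf2 skin, against 11.21, 11.68 and 11.55 in control skin. Krtap22-2 measured 11.80, 11.19 and 10.41 in caNrf2 skin, against 11.13, 11.45 and 11.31 in control skin. In these genes array 2 lay within the control range, as in 12 of the 14. Krtap6-3 had the most negative difference of any hair gene, -0.68 ± 0.56 (SE; limma, adjusted p = 0.811), with 7.48, 6.61 and 4.52 in caNrf2 skin, against 6.66, 7.18 and 6.83 in control skin. Without caNrf2 array 3, which was below the highest Y-linked value, the difference was 0.16. A second Krtap6-3 probe set stayed below that value on all arrays and gave 0.085. Krtap7-1 had the most positive difference, 0.29 (-0.33 to 0.91), with 10.37, 10.15 and 9.10 in caNrf2 skin, against 9.91, 9.57 and 9.26 in control skin. In Krtap7-1, unlike the 13 other genes of the class, the highest control was array 1.

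The 6 Krtap19 genes moved alike. Distances from array 1 to array 3 ran from 2.15 for Krtap19-9b to 3.79 for Krtap19-1, and group differences from -0.31 to -0.11. Such short and similar genes can share probes, so they are not independent measurements. A probe set that names Krtap6-1 together with Gm10228 and 1110025L11Rik, not counted above, measured 11.55, 10.82 and 9.41 in caNrf2 skin, against 10.56, 11.13 and 10.93 in control skin. Its distance from array 1 to array 3, 2.14, was the largest of the probe sets that name a Krtap gene among several genes. Distances of the others ran from 0.67 to 1.03.

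Control mice differed by less, in the Krtap genes. Control array 2 was the highest control for 22 of 24 sulfur-rich and 13 of 14 glycine-tyrosine-rich genes, against 34.7% of all genes. Control array 1 was the lowest for as many, 22 and 13. Keratins did not share this order: control array 2 was the highest for 5 of 12 shaft and 2 of 7 inner root sheath keratins, and control array 1 the lowest for 1 of 12 and 3 of 7. Inner root sheath keratins had control medians between -0.018 and 0.0088. Across the 61 genes, which share arrays and probes, the range over control arrays and the range over caNrf2 arrays had a Spearman's rho of 0.73, against 0.14 across all genes.

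**Figure D4:**
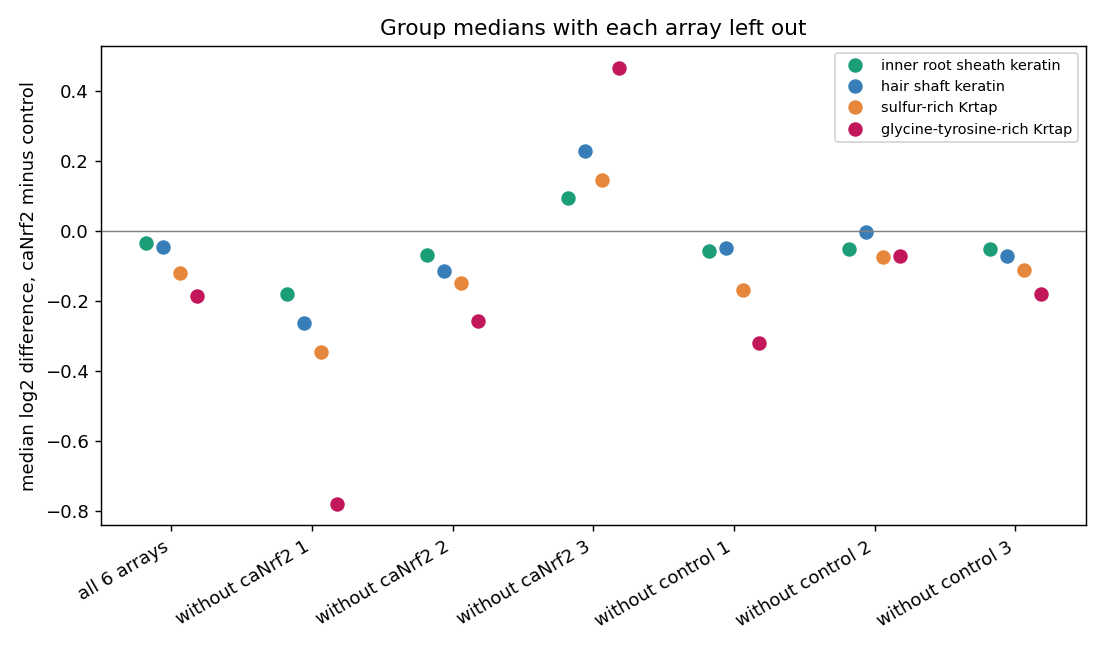
Points are the median log2 difference, caNrf2 minus control (y axis), of each class with all 6 arrays and with each array left out (x axis). All 4 class medians lie above 0 without caNrf2 array 3 (0.093 to 0.47) and below 0 without caNrf2 array 1 (-0.18 to -0.78).

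Other genes of hair formation were taken from a list of 51 signals, receptors, regulators and further shaft products, of which 45 were found under the listed symbol. Other names of a gene were not looked up, so a listed gene could be measured under another symbol. In that fit 0 of 45 passed the adjusted threshold in limma in either direction, where 0.374% of all genes did. An unadjusted p under 0.05 was found for 5 of 45, against 8.09% of all genes, and the median difference was -0.017. Among 12 signals, Wnt10a (-0.20 ± 0.086) and Tgfb2 (0.19 ± 0.079; log2 difference ± SE), a growth factor of the follicle, had the smallest p (limma, adjusted p = 0.609 and 0.58), followed by Nog (-0.14), which inhibits Bmp signals, and Wnt10b (-0.14). Among 6 receptors the differences were -0.059 for Notch1, 0.041 for Fgfr2, -0.043 for Fzd10 and 0.032 for Ptch1, receptor and target of Shh. Array 1 lay above and array 3 below every control for 2 of 12 signals (Wnt5a and Fgf7) and 0 of 6 receptors, against 6.33% of all genes.

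Regulators followed the shaft genes in part. Hoxc13, which activates hair keratin genes, measured 8.67, 8.48 and 8.33 in caNrf2 skin, against 8.62, 8.79 and 8.74 in control skin, a difference of -0.22 ± 0.095 (SE; limma, adjusted p = 0.609). Lef1, which carries Wnt signals in the matrix, measured 9.31, 9.34 and 9.25 in caNrf2 skin, against 9.33, 9.33 and 9.34 in control skin. Differences were -0.068 for Dlx3, 0.058 for Gata3, a regulator of the inner root sheath, -0.15 for Nfatc1, 0.12 for Runx1 and 0.082 for Prdm1. Of 13 regulators, 4 had array 1 above and array 3 below every control, namely Gata3, Sox21, Foxq1 and Vdr.

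Further shaft and sheath products had that array pattern in 8 of 14 genes, with a median distance of 0.39. Gprc5d, a receptor-like protein of the shaft, measured 10.36, 10.12 and 9.44 in caNrf2 skin, against 10.02, 10.02 and 9.92 in control skin. S100a3, a calcium-binding protein of the hair cuticle, measured 11.95, 11.86 and 11.41 in caNrf2 skin, against 11.84, 11.93 and 11.89 in control skin. Padi3, which citrullinates trichohyalin, measured 10.95, 10.78 and 10.22 in caNrf2 skin, against 10.82, 10.75 and 10.75 in control skin. Array 3 was the low value in all 3, of which Gprc5d and Padi3 were picked after their values were seen. Lipk, Tgm1 and Calm4 ran the other way, with array 1 minus array 3 at -0.37, -0.11 and -0.080. Lipk measured 8.24, 8.51 and 8.61 in caNrf2 skin, against 7.95, 8.26 and 8.04 in control skin. Lipk, a lipase (0.37 ± 0.11), and Tgm3, a transglutaminase that crosslinks trichohyalin (0.25 ± 0.087), did not pass the test (limma, adjusted p = 0.366 and 0.472), nor did Dsc2, a desmosomal cadherin (0.13 ± 0.11).

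Some markers of other cell types shared the pattern. Of 7 melanocyte markers 3 (Dct, Tyrp1, Tyr) had array 1 above and array 3 below every control, the median distance was 0.34, and the summed signal (log2) ranged from 13.14 to 13.45 in caNrf2 skin and from 13.35 to 13.42 in control skin. Of 6 markers of outer root sheath and progenitors 3 had it (Krt17, Krt15, Krt6a), with sums from 14.11 to 14.31 in caNrf2 skin and from 14.15 to 14.19 in control skin. Krt6a, a keratin of the companion layer and outer sheath, measured 11.29, 11.07 and 10.62 in caNrf2 skin, against 10.88, 10.88 and 10.91 in control skin. Its distance from array 1 to array 3, 0.66, exceeded the median of the inner root sheath keratins. Of 5 sebaceous markers 1 (Scd1) had it, with sums from 13.52 to 13.70 in caNrf2 skin and from 13.50 to 13.64 in control skin. Those sums weigh the brightest, Mgst1 and Scd1, most. Groups did not overlap for 3 of the 5, against 13.1% of all genes. Scd3 passed the test, lower in caNrf2 skin (-0.81 ± 0.13; limma, adjusted p = 0.0294). Elovl3, lower (-0.37), and Mgst1, higher (0.19), did not pass (limma, adjusted p = 0.442 and 0.631). Of 4 proliferation markers 1 (Mki67) had the array pattern, with sums from 12.42 to 12.65 in caNrf2 skin and from 12.60 to 12.67 in control skin. None of 6 epidermal, 4 dermal, 6 dermal papilla, 3 adipocyte and 5 skeletal muscle markers had it. Some of these ran the other way. For array 1 minus array 3, epidermal markers ran from -0.15 to -0.026. Dermal papilla markers ran from -0.41 (Sox18) to 0.053, and muscle markers from -0.67 (Myh3) to 0.023. The 5 medians, in the order listed, were -0.062, -0.040, -0.16, -0.015 and -0.14, against -0.012 over all genes. Dermal papilla sums lay between 11.80 and 12.04 in caNrf2 skin, and all 3 control sums fell inside that range. Epidermal sums ranged from 16.46 to 16.54 in caNrf2 skin and from 16.46 to 16.50 in control skin, and dermal sums from 15.56 to 15.60 in caNrf2 skin and from 15.54 to 15.60 in control skin. Adipocyte sums ranged from 14.30 to 14.35 in caNrf2 skin and from 14.28 to 14.43 in control skin, and muscle sums from 15.22 to 15.37 in caNrf2 skin and from 15.26 to 15.31 in control skin. The part of these cell types in the hair gene values was not tested.

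**Figure D5:**
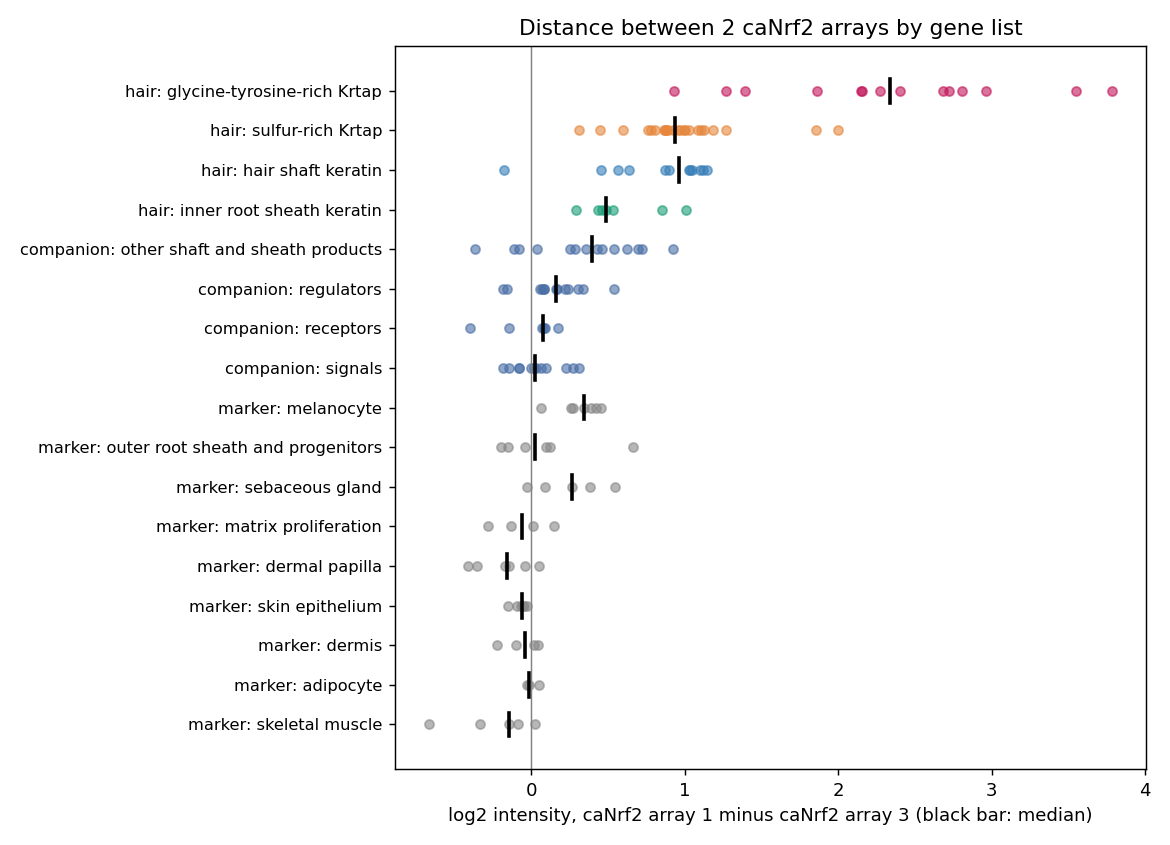
Points are genes, placed by log2 intensity on caNrf2 array 1 minus array 3 (x axis), in rows for the hair gene classes, other genes of hair formation and markers of other cell types. Medians are 2.34 for glycine-tyrosine-rich Krtap genes, 0.49 for inner root sheath keratins and -0.062 for epidermal markers.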

How the data were processed

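Whole back skin RNA of 3 caNrf2 and 3 control mice was hybridised to 1 array each. The authors deposited linear intensities per probe set, made with RMA per the submitters' processing notes; no software version is recorded in the labels. RMA gives all arrays a like distribution and can hide shifts common to most probe sets. Intensities were converted to log2 here (the planned design had assumed log2 values), 64 of 45101 probe sets, the Affymetrix controls, were dropped, and 34945 with a single symbol gave 18193 genes. Chromosomes are those of GRCm38.p6 gene tables.

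limma 3.58.1 under R 4.3.3 (lmFit and eBayes, 3 against 3 arrays, Benjamini-Hochberg over all genes, threshold 0.05) compared the groups and was tested on simulated data. Krtap classes follow family numbers; protein composition was not examined. Values on every array are given for Tchh, Msx2, Foxn1, Krt75 and, in each class, the 3 brightest genes and those with the largest positive and negative difference; Krt84, Krtap14 and Krtap19-1 were added after their values were seen. The members and lists were chosen with earlier results of these data known. The alternatives were a replicate block, median centring, quantile normalisation, dropping dim genes, averaging probe sets, an intensity trend, robust eBayes, array weights and each array left out.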

Additional observations from a re-analysis of the deposited data

How the results depend on the processing

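Under the alternatives run, 0 hair genes passed the adjusted threshold in limma. The smallest adjusted p was 0.146, without caNrf2 array 1, where 19 of 61 hair genes had an unadjusted p under 0.05, against 14.4% of all genes. Without caNrf2 array 3 it was 11 of 61, against 6.52% of all genes, with 55 of 61 differences above 0. With array weights it was 12 of 61, against 13.7% of all genes. Each is a larger share than among all genes, in hair genes that share arrays and probes. In the other settings the count was 0. Same-numbered mice did not deviate together (correlations across genes of -0.20, -0.032 and 0.036 for numbers 1, 2 and 3). Such correlations cannot show whether same-numbered mice shared any handling. The replicate block called 61 of all genes, against 68 without it, and 0 hair genes. Of all genes, 41 to 89 were called with single arrays left out. Array weights were 0.43, 0.55 and 1.52 for caNrf2 arrays 1, 2 and 3, so array 3 counted most in the weighted caNrf2 mean. That setting gave a median of -0.32 over the hair genes and turned the sign of 7 of 61. Among those with all values given, it turned Krt25 (-0.054), Krt33b (-0.14), Krt82 (-0.16), Krt84 (0.047), Krtap5-4 (-0.14) and Krtap7-1 (-0.012). Why the caNrf2 arrays differ was not tested. Krt84 also turned with median centring (0.0012) and quantile normalisation (0.018). Leaving out each array in turn gave log2 differences of both signs for these genes, with lowest and highest values of Foxn1 -0.095 to 0.13, Krt25 -0.059 to 0.088, Krt27 -0.12 to 0.093, Krt28 -0.24 to 0.025, Krt32 -0.28 to 0.035, Krt33a -0.38 to 0.20, Krt33b -0.13 to 0.31, Krt34 -0.27 to 0.26, Krt35 -0.22 to 0.058, Krt71 -0.18 to 0.063, Krt75 -0.23 to 0.055, Krt81 -0.26 to 0.26, Krt82 -0.14 to 0.31, Krt83 -0.30 to 0.26, Krt84 -0.076 to 0.047, Krt86 -0.28 to 0.27, Krtap14 -0.54 to 0.46, Krtap19-1 -1.11 to 0.78, Krtap22-2 -0.50 to 0.20, Krtap4-1 -0.30 to 0.22, Krtap4-16 -0.26 to 0.18, Krtap4-6 -0.36 to 0.12, Krtap5-3 -0.45 to 0.013, Krtap5-4 -0.12 to 0.44, Krtap6-3 -1.32 to 0.16, Krtap6-5 -0.65 to 0.28, Krtap8-1 -0.24 to 0.22, Tchh -0.19 to 0.030. Of the genes with all values given, Krtap7-1 0.044 to 0.68 and Msx2 -0.20 to -0.0036 kept their sign when single arrays were left out. The median 95% interval of a hair gene reached 0.437 to either side, against 0.185 over all genes.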
